A study of Rattus norvegicus with 12 samples.

Results

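Integrins are the cell surface receptors through which cells grip extracellular matrix, and laminins are matrix proteins of basement membranes, thin sheets that lie under epithelium and around vessels, nerve and muscle. The genes described here were taken by name from the array design, as genes named as an integrin alpha or beta subunit or as a laminin alpha, beta or gamma chain. The 36 genes reported, of 34912 gene names on the array, are 26 of integrin subunits and 10 of laminin chains, measured by 52 probes. The brightest probe stood for each gene, and 34 of the 36 were tested. Itga7, an alpha subunit of muscle that binds laminin, was well above background on none of the 12 arrays, and Lama1, a laminin alpha chain of early embryos, on 2 of 12, so neither was tested.

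The study profiled the calvaria, the bone of the skull roof, of rats aged 10 weeks, 72 h after surgery, on single-colour Agilent arrays. In the laser group a defect of 8 by 3 mm had been cut with an Er:YAG laser, which emits infrared light absorbed by water and removes hard tissue, run at 20 Hz with 127 mJ per pulse. In the bur group a defect of the same size had been drilled with a rotating bur. In the control group the bone was not ablated. The treatment protocol says that the periosteum was taken off control bone, while the design text has the controls as non-treated, and which of these holds was not settled. The labels give no strain, sex or allele, and whether the 4 samples of a group are 4 animals is not stated. The p-values therefore cover the spread between samples, which may be technical.

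An integrin receptor is a pair of 1 alpha and 1 beta subunit, and the alpha subunit largely sets what is bound: fibronectin through alpha5, fibrillar collagen through alpha1, alpha2, alpha10 and alpha11, laminin through alpha3, alpha6 and alpha7. A laminin is a trimer of 1 alpha, 1 beta and 1 gamma chain. Lama3 and Lamb3 encode chains of laminin that anchor skin epithelium and are known for their rise in the moving edge of skin wounds. Lama4 is a chain of vessel basement membrane, and Lamb1 and Lamc1 are shared by most laminins. In blood, integrins of beta2 and beta7 mark leukocytes, and alphaIIb with beta3 is the fibrinogen receptor of platelets.

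The letters of 4 probes are shown because they read the spliced transcript of laminin chains. Those of Lama3 and Lamb3 gave the values reported for these genes, and those of Lamb1 are further probes beside the brighter one used. Each is 60 bases long and its place on rn4 covers far more, so it crosses at least 1 exon junction. The Lama3 probe lies at chr18:4114864-4117807, the Lamb3 probe at chr13:109187343-109189861, and the first and second Lamb1 probes at chr6:49178140-49179911 and chr6:49137599-49137933, all on the + strand.
Lama3: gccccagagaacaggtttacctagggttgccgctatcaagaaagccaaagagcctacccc
Lamb3: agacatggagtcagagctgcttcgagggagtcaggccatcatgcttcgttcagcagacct
Lamb1, first: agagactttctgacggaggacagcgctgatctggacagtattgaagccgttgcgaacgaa
Lamb1, second: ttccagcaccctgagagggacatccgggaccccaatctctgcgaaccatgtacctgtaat

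The 250 bases before the start of 4 of the 5 genes that rose with both treatments are shown next, from RefSeq on GRCr8. They set these promoters side by side, and that of Itga11 is not printed. The entries lie at chr18:3952517-3952766 (+ strand), chr13:107362303-107362552 (+ strand), chr20:43946648-43946897 (+ strand) and chr7:136381306-136381555 (- strand), and each is written 5′ to 3′ in the direction of its gene. Capitals mark matches to any of 4 short motifs searched on both strands: TGANTCA, the AP-1 site, AGATAA of GATA factors, GGGCGG, the GC box, and AGGAAG of ETS factors and PU.1. No match overlapped another here.
Lama3: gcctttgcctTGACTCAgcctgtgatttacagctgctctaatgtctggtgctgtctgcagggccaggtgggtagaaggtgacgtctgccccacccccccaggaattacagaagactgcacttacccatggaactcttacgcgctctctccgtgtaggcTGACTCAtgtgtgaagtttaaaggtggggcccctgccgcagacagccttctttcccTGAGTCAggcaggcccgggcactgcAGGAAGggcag
Lamb3: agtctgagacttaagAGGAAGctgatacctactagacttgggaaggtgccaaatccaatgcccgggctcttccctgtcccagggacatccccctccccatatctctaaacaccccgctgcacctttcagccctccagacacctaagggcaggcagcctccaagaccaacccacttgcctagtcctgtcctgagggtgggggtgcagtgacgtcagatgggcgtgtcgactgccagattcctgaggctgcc
Lama4: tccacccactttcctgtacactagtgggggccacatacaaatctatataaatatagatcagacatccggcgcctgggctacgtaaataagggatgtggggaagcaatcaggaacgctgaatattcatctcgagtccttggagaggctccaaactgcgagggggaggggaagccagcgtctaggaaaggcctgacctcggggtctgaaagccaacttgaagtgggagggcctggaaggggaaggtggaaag
Itga5: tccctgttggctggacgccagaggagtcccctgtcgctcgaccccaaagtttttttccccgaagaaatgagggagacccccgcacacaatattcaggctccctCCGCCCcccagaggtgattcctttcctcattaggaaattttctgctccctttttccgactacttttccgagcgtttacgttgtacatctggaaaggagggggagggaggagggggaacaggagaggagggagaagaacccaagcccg

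The Lama3 promoter held TGANTCA 3 times, and 2 of the 28 integrin and laminin promoters in the table held it at all, the other in Itgax, against 6.34% of all 33469 promoters of the same length. The match AGGAAG was in Lama3 and Lamb3 and in 11 of the 28 (39.3%), against 29.5% of all promoters. GGGCGG was in Itga5 and in 14 of the 28 (50%), against 30.5%, and AGATAA in Itgae alone, against 10.3%. The Lama4 window held none of the 4. That of Itga11, which is not printed, held 1 match to GGGCGG and 1 to AGGAAG. A match is a description of letters, and no binding was measured in these samples. No promoter entry was matched for Itga6, Itga7, Itgad, Itgal, Itgb2, Itgb3, Itgb4 and Lamb2.

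Levels are log2 processed intensities from which the 75th percentile of each array was taken, so 0 is the level of the 75th percentile and 1 unit is a doubling within a probe. A difference is the mean of the first group minus that of the second on this log2 scale, and a gene passed where limma's adjusted p over all 22718 genes tested was under 0.05. The share of probes well above background ran from 58.1% to 67.0% per array. The control arrays shared 1 slide and the 8 treated arrays shared the second, with a scan time for each slide. Slide, scan and surgery therefore cannot be told apart wherever control is compared. Laser arrays sat in 1 column of that slide and bur arrays in the other, so slide column and group cannot be told apart between them. Of the controls, replicate 3 was the closest to treated bone, at 6.67 on the first principal component of all genes, against -53.1 to -7.43 for the treated arrays and 102, 55.5 and 122 for the other controls. Bone markers were measured: the 13 tested osteoblast and bone matrix genes averaged 1.85 to 2.20 on laser, 1.27 to 1.93 on bur and 1.04 to 1.70 on control arrays, while Fgf23, an osteocyte marker, was well above background on no array.

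The comparison of laser with control bone asked what ablation with the laser changed. Of 9 laminin chain genes tested, 4 rose and 1 fell, 4 did not pass, and 8 of 9 differences lay above 0, with a median of 0.80 on the log2 scale. Among 25 integrin genes 4 rose, 1 fell and 20 did not pass, with a median difference of -0.05. Over both families 8 of 34 rose and 2 fell, where 9.26% of all 22718 genes rose, 13.0% fell (22.3% either way) and the median was 0.02.

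With bur against control, 3 of 9 laminin genes rose and 0 fell, 6 did not pass, and 8 of 9 differences again lay above 0, with a median of 0.81. Of 25 integrin genes 2 rose, 3 fell and 20 did not pass, with a median of 0.09. Over both families 5 of 34 rose and 3 fell, where 9.99% of all genes rose, 16.2% fell (26.2% either way) and the median was -0.00010. Both comparisons use the same 4 control arrays, so their results are not independent. In bulk tissue, fewer cells of a type and less RNA per cell cannot be told apart.

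Of the 34 genes, 29 were well above background on all 12 arrays and 5 were not: Itga3, Itgb6, Itgb8, Lama3 and Lamb3. Their entry into the test rests in part on the treated arrays, so the calls of these 5 are given apart and are no support. They hold 4 of the 8 rises with laser and 2 of the 5 with bur. Among the 29 measured on every array, 4 rose and 2 fell with laser (Lama4, Itga5, Itga11 and Lamb2 up, Lamc3 and Itga4 down), and 3 rose and 3 fell with bur (Lama4, Itga5 and Itga11 up, Itga4, Itga1 and Itga6 down). Those counts are from the main fit. In a fit over the 18375 genes detected on all 12 arrays, 4 of the 29 rose (13.8%) and 2 fell (6.9%) with laser. Of all genes in that fit 10.4% rose and 15.6% fell with laser. With bur 3 of the 29 rose (10.3%) and 5 fell (17.2%), with Itga2b and Itgad added, where 11.5% of all genes rose and 19.8% fell. In that fit 2 of 7 laminin genes rose and 1 fell with laser, and 1 rose and 0 fell with bur.

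Lamb3 and Lama3, of laminin under skin epithelium, rose with both treatments. Lamb3, a laminin beta chain of epithelial basement membrane, was at -4.17, -4.84, -4.99 and -4.15 on the laser arrays, -4.62, -5.28, -4.38 and -4.78 on the bur arrays and -6.63, -5.88, -5.74 and -7.33 on the control arrays. Every laser and every bur array lay above every control array. Lamb3 averaged -4.54 ± 0.44 with laser and -4.77 ± 0.38 with bur, against -6.40 ± 0.74 in control (SD, n = 4 each). It rose by 1.86 with laser (SE 0.35, 3.62-fold, limma adjusted p = 0.0102) and by 1.63 with bur (SE 0.35, 3.09-fold, limma adjusted p = 0.0103). The probe was well above background on all treated arrays and on 3 of 4 control arrays. With normexp, another background correction, the rises were 0.39 and 0.13 and no longer passed (limma adjusted p = 0.124 and 0.534).

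Lama3, an alpha chain of the same basement membranes, was at -5.10, -5.09, -5.50 and -5.17 on the laser arrays, -5.60, -5.07, -5.68 and -5.61 on the bur arrays and -7.65, -6.28, -5.81 and -6.91 on the control arrays. Laser and bur arrays again lay above all control arrays. The means were -5.22 ± 0.20 with laser and -5.49 ± 0.28 with bur, against -6.66 ± 0.80 in control, and the rise was 1.45 with laser (SE 0.33, limma adjusted p = 0.0172) and 1.17 with bur (SE 0.33, limma adjusted p = 0.0245). The call held in 11 of 12 fits that left out an array with laser, lost without laser replicate 2, and in 9 of 12 with bur. With only bur and control fitted the bur call did not pass (limma adjusted p = 0.0577). Control bone had Lama3 well above background on 2 of 4 arrays, and all 8 treated arrays had it. With normexp the laser difference was 0.10 and the bur difference turned to -0.14, which is 0.10 above the median of all genes under that correction (-0.24).

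Markers of epithelium, the tissue in which these chains are best known, were read beside them. Over all genes 9.26% rose and 13.0% fell with laser, and 9.99% and 16.2% with bur. Of 8 tested epithelial and skin genes 0 rose and 1 fell in each comparison. The list's mean level was -5.08 to -4.79 on laser, -5.34 to -4.47 on bur and -5.19 to -4.55 on control arrays. The 1 that fell was Cdh1, which encodes E-cadherin, by 1.82 with laser and 1.77 with bur. Krt14, a keratin of the basal layer of skin, differed by 0.26 with laser (limma adjusted p = 0.523) and 0.10 with bur (limma adjusted p = 0.821).

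**Figure D1:**
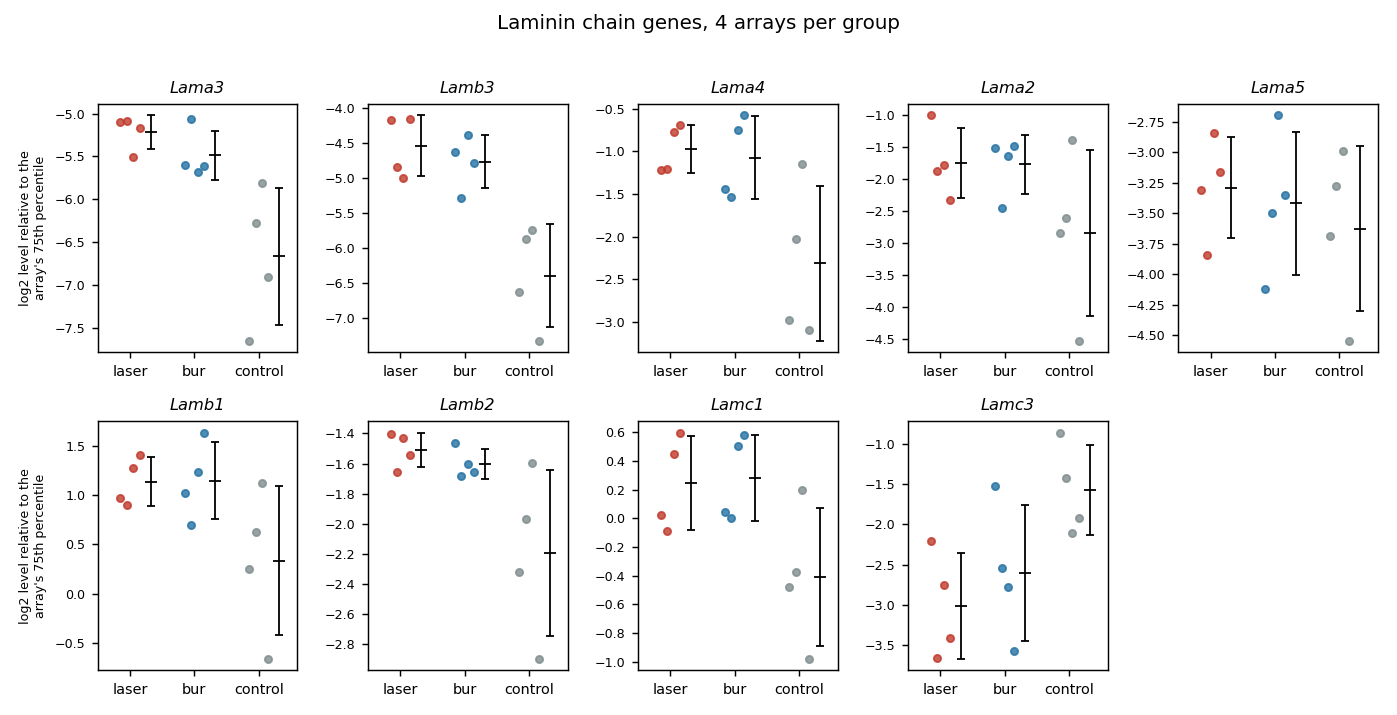
Level of the 9 tested laminin chain genes on each array, as log2 relative to the array's 75th percentile, for laser, bur and control (points are arrays, bars are the mean and SD of 4). The laser and bur points of Lama3 and Lamb3 lie above all control points, and control replicate 3 is the highest control in every panel but that of Lamc3, where it is the lowest.

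Lama4, the alpha chain of vessel and muscle basement membrane, was at -1.22, -1.20, -0.77 and -0.69 on the laser arrays, -1.44, -1.54, -0.74 and -0.57 on the bur arrays and -2.97, -2.03, -1.15 and -3.10 on the control arrays. It averaged -0.97 ± 0.28 with laser and -1.07 ± 0.49 with bur, against -2.31 ± 0.91 in control, and control replicate 3 overlapped the treated arrays. The rise was 1.34 with laser (2.54-fold, SE 0.40, limma adjusted p = 0.0354) and 1.24 with bur (2.36-fold, SE 0.40, limma adjusted p = 0.04). It held in 6 and 3 of 12 fits that left out an array. The laser call was lost without a detection filter (limma adjusted p = 0.0572). With only the groups compared fitted, neither call passed (limma adjusted p = 0.0685 with laser and 0.0821 with bur). Over all genes 9.26% rose and 13.0% fell with laser, and 9.99% and 16.2% with bur. Of 14 endothelial markers 0 rose and 1 fell with laser, and 0 rose and 2 fell with bur, while 3 of 11 pericyte and smooth muscle markers rose with laser and 0 with bur. Their part in the result was not tested.

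Lamb2, a beta chain of vessel, kidney and nerve-muscle basement membranes, was at -1.40, -1.65, -1.43 and -1.54 on the laser arrays, -1.46, -1.69, -1.60 and -1.66 on the bur arrays and -2.32, -1.97, -1.60 and -2.90 on the control arrays. Its 0.69 rise with laser passed narrowly (SE 0.23, limma adjusted p = 0.049), and it held in 1 of 12 fits that left out an array, the one without control replicate 3. The call held in 5 of 10 other settings. With bur the difference was 0.59 (95% interval 0.10 to 1.09, limma adjusted p = 0.0716).

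The chains shared by most laminins did not pass, though their differences were above 0. Lamb1 was at 0.97, 0.90, 1.28 and 1.41 on the laser arrays, 1.02, 0.70, 1.23 and 1.63 on the bur arrays and 0.25, 0.63, 1.13 and -0.66 on the control arrays. The differences were 0.80 with laser (95% interval 0.074 to 1.53, limma adjusted p = 0.0986) and 0.81 with bur (interval 0.084 to 1.54, limma adjusted p = 0.0896). The 2 junction probes of Lamb1 printed above gave larger differences, 1.04 and 1.78 with laser and 1.05 and 1.94 with bur. In a fit over probes only the last passed (limma adjusted p = 0.0401). That value is of the second probe, which averaged -7.39 on control arrays. This probe was well above background on 9 of 12 arrays, so its pass is no support. The first probe was well above background on all 12 and passed in neither comparison (limma adjusted p = 0.0619 with laser and 0.0552 with bur). Lamc1, the common gamma chain, was at 0.023, -0.089, 0.45 and 0.60 on the laser arrays, 0.047, -0.0011, 0.50 and 0.58 on the bur arrays and -0.48, -0.37, 0.20 and -0.98 on the control arrays. It differed by 0.65 with laser (interval 0.10 to 1.21, limma adjusted p = 0.0816) and 0.69 with bur (interval 0.13 to 1.25, limma adjusted p = 0.0639), and its groups overlapped through control replicate 3.

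Lamc3, a gamma chain of nerve, retina and testis, was the laminin gene that went the other way. It was at -2.21, -3.66, -2.75 and -3.41 on the laser arrays, -1.53, -2.55, -2.78 and -3.57 on the bur arrays and -0.86, -1.42, -2.10 and -1.92 on the control arrays. All laser arrays lay below all control arrays, and 1 bur array reached into the control range. The means were -3.01 ± 0.66 with laser and -2.61 ± 0.84 with bur, against -1.58 ± 0.56 in control. Lamc3 fell by 1.43 with laser (SE 0.44, limma adjusted p = 0.0404), a call kept in 4 of 12 fits that left out an array. That call was lost without a detection filter (limma adjusted p = 0.0641) and with only laser and control fitted (limma adjusted p = 0.053). The bur difference was -1.03 (95% interval -2.0 to -0.058, limma adjusted p = 0.104), and in the fit blocked by replicate number it passed (limma adjusted p = 0.0216). Of 9 Schwann cell and nerve markers 1 rose and 1 fell in each comparison, where 9.26% and 9.99% of all genes rose and 13.0% and 16.2% fell. The remaining laminin genes did not pass: Lama2, the chain of muscle and Schwann cells, differed by 1.09 and 1.07 with its brightest probe and by 0.22 to 0.46 with its others, and Lama5, a chain of many adult basement membranes, by 0.34 and 0.21.

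The mean level of the 9 laminin genes was -1.94, -2.37, -2.04 and -2.05 on the laser arrays, -2.14, -2.37, -1.98 and -2.09 on the bur arrays and -3.02, -2.58, -2.16 and -3.65 on the control arrays. Control replicate 3 thus lay within the treated range and the other 3 controls below it. This mean and the counts over 9 genes include Lama3 and Lamb3, which were not well above background on every array. Among the 7 laminin genes detected on all 12 arrays, the median difference was 0.69 with laser and 0.69 with bur. Without control replicate 3, 7 of 9 laminin genes rose and 1 fell with laser, and 7 rose and 0 fell with bur, when 17.0% and 16.7% of all genes rose. Leaving out any other array gave 1 to 3 rises and 0 to 1 falls in each comparison, the fewest rises without laser replicate 2 for laser and without control replicate 1 or 4 for bur. Without laser replicate 2, 2.28% of all genes rose with laser, and without control replicate 1, 878 of all 22718 rose with bur. With normexp 1 laminin gene rose and 1 fell with laser, where 5.22% of all genes rose and 10.7% fell. With bur 3 laminin genes rose and 1 fell under normexp, where 7.25% of all genes rose and 27.8% fell. The mean level of 10 fibroblast markers was 1.78 to 2.24 on laser, 1.56 to 2.51 on bur and -0.48 to 2.01 on control arrays, with control replicate 3 highest of the controls. Their part in the result was not tested.

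Of 23 tested basement membrane partners of laminin 1 rose and 1 fell with laser (median 0.22), where 9.26% of all genes rose and 13.0% fell. With bur 0 rose and 2 fell (median 0.22), where 9.99% rose and 16.2% fell. Nid1, which encodes nidogen, the linker of laminin to collagen IV, rose by 0.94 with laser (limma adjusted p = 0.0279). Tinagl1, which encodes a matricellular protein of basement membrane, fell by 1.34 with laser and by 1.43 with bur (limma adjusted p = 0.0191 and 0.0114), and Frem2, of the Fraser complex under skin, fell by 0.55 with bur (limma adjusted p = 0.0183). Without control replicate 3, 7 rose and 2 fell with laser and 5 rose and 3 fell with bur, when 17.0% of all genes rose and 18.2% fell with laser, and 16.7% and 20.3% with bur. Leaving out any other array gave 0 to 2 rises and 0 to 2 falls with laser, and 0 to 1 rises and 1 to 2 falls with bur.

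Among integrins, the smallest adjusted p in both comparisons with control was that of Itga5, the alpha subunit of the fibronectin receptor alpha5beta1. It was at -3.37, -3.12, -3.25 and -2.67 on the laser arrays, -3.38, -3.34, -2.89 and -3.28 on the bur arrays and -4.55, -3.89, -4.02 and -4.77 on the control arrays. No treated array overlapped a control array. The means were -3.10 ± 0.31 with laser and -3.22 ± 0.23 with bur, against -4.31 ± 0.42 in control. Itga5 rose by 1.20 with laser (2.3-fold, SE 0.22, limma adjusted p = 0.00998) and by 1.08 with bur (2.12-fold, SE 0.22, limma adjusted p = 0.00903). Both calls held in all 12 fits that left out an array. The laser call also held in all 10 other settings, and the bur call in 9, with normexp the exception (0.38, limma adjusted p = 0.0582). Its probe lies at chr7:142254464-142254523 of rn4.

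Itga11, the alpha subunit of a fibrillar collagen receptor of fibroblasts and bone-forming cells, was at -2.51, -2.21, -2.03 and -2.04 on the laser arrays, -2.38, -2.63, -2.84 and -2.03 on the bur arrays and -3.15, -3.04, -2.85 and -3.66 on the control arrays. Laser and bur arrays lay above all control arrays. It averaged -2.20 ± 0.23 with laser and -2.47 ± 0.35 with bur, against -3.17 ± 0.34 in control, a rise of 0.98 (SE 0.22, limma adjusted p = 0.0161) and 0.70 (SE 0.22, limma adjusted p = 0.0345). The laser call held in all 12 fits that left out an array and the bur call in 7, and in the fit blocked by replicate number the bur call did not pass (limma adjusted p = 0.06). The bur call was also lost with normexp (limma adjusted p = 0.0767) and with only bur and control fitted (limma adjusted p = 0.0653).

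No other collagen-binding alpha subunit passed as higher. Itga1, whose receptor binds collagen IV and collagen I, was at 1.73, 1.23, 1.50 and 1.83 on the laser arrays, 0.96, 1.41, 1.70 and 1.43 on the bur arrays and 2.39, 1.91, 1.90 and 1.87 on the control arrays. Both treated groups lay below all control arrays. Itga1 fell by 0.64 with bur (SE 0.19, limma adjusted p = 0.0333, or 0.0517 when blocked by replicate) and its laser difference was -0.44 (95% interval -0.87 to -0.018, limma adjusted p = 0.115). The bur call held in 6 of 12 fits that left out an array, and was lost with only bur and control fitted (limma adjusted p = 0.054). Itga10, a collagen receptor subunit of cartilage, differed by 0.73 and 0.36, and Itga2, the collagen receptor subunit of platelets and epithelium, by 0.082 and -0.11.

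Among the laminin-binding subunits, Itga3, the partner of beta1 in a receptor for laminin of skin, was at -5.85, -6.03, -6.13 and -6.64 on the laser arrays, -5.97, -6.35, -6.64 and -6.68 on the bur arrays and -7.30, -6.56, -7.03 and -6.98 on the control arrays. The probe was well above background on 4 laser arrays, 4 bur arrays and no control array, so the change is a bound. In the main processing this bound was 1.45-fold higher with laser. Itga3 was measured as 0.81 higher on the log2 scale (95% interval 0.32 to 1.29, limma adjusted p = 0.0288), with means of -6.16 ± 0.34 with laser and -6.97 ± 0.30 in control. The bound is no lower limit on the true change, since normexp gave 0.038 and a second probe 0.02 with laser. The entry of Itga3 into the test rests on the treated arrays, so its call is no support. With bur the difference was 0.56 (95% interval 0.069 to 1.04, limma adjusted p = 0.0834). The bound sets the laser mean against, on each control array, the lowest signal of any probe well above background, or the signal of the Itga3 probe itself where that is higher. The laser call held in 7 of 12 fits that left out an array. It was lost with normexp, where the difference was 0.038 (limma adjusted p = 0.877), with the mean of the kept probes (0.41, limma adjusted p = 0.372), with array weights (0.58, limma adjusted p = 0.0673) and with only laser and control fitted (limma adjusted p = 0.0568). A second Itga3 probe gave 0.02 with laser and 0.78 with bur, neither past the threshold.

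Itga6, the alpha subunit of the other common laminin receptors, was at -1.32, -1.35, -1.49 and -1.41 on the laser arrays, -1.88, -1.54, -1.16 and -1.80 on the bur arrays and -1.05, -0.94, -1.22 and -0.67 on the control arrays. Itga6 fell by 0.62 with bur (SE 0.17, limma adjusted p = 0.0236). The call held in 7 of 12 fits that left out an array, and was lost with the mean of the kept probes (-0.33, limma adjusted p = 0.178) and with only bur and control fitted (limma adjusted p = 0.0582). With bur 1 array overlapped control replicate 3. With laser all arrays lay below all control arrays, and the difference was -0.42 (95% interval -0.80 to -0.046, limma adjusted p = 0.0935). The second Itga6 probe differed by 0.10 with laser and -0.04 with bur, so the probes of this gene disagree. Itgb4, the partner of alpha6 in the epithelial anchor, differed by 0.12 and 0.087.

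Itgb8, a beta subunit that pairs with alphav and can activate latent TGF-beta, was at -5.64, -6.07, -6.42 and -5.37 on the laser arrays, -5.50, -6.23, -6.43 and -6.46 on the bur arrays and -8.16, -7.14, -6.01 and -8.46 on the control arrays. Control replicate 3 overlapped the treated arrays. The means were -5.87 ± 0.46 with laser, well above background on 4 of 4 arrays, and -7.44 ± 1.11 in control, on 1 of 4. Itgb8 rose by 1.57 with laser (SE 0.47, limma adjusted p = 0.0371), but not with the replicate number as a block (limma adjusted p = 0.058), and with normexp the difference was -0.027. It held in 5 of 12 fits that left out an array and in 4 of 9 other settings. With bur it was 1.28 (95% interval 0.25 to 2.32, limma adjusted p = 0.0632). Itgb6, another beta subunit known to activate latent TGF-beta, mainly in epithelium, differed by 1.12 (limma adjusted p = 0.192) and 1.40 (limma adjusted p = 0.104), and passed in both comparisons with the replicate block (limma adjusted p = 0.0191 and 0.00792). With normexp the Itgb6 differences were -0.051 and -0.23, and neither passed. A second Itgb6 probe gave 0.70 with laser and 0.84 with bur, neither past the threshold. The Itgb6 probe used was well above background on 3 of 4 laser, 4 of 4 bur and 1 of 4 control arrays.

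The brightest probes of the shared partners did not pass. Itgb1, the beta subunit that pairs with most alpha subunits named here, was at 3.28, 3.53, 3.22 and 3.62 on the laser arrays, 3.31, 3.40, 3.60 and 3.50 on the bur arrays and 3.06, 3.07, 3.34 and 2.66 on the control arrays. Its brightest probe differed by 0.38 with laser (95% interval 0.029 to 0.73, limma adjusted p = 0.103) and 0.42 with bur (interval 0.072 to 0.77, limma adjusted p = 0.0703). Its second probe passed in a fit over probes, with 0.69 and 0.67 (limma adjusted p = 0.0163 and 0.012), so the call depends on the probe. Itgav, the alpha subunit of receptors for vitronectin, osteopontin and other RGD proteins, was at 2.60, 2.56, 2.63 and 3.08 on the laser arrays, 2.25, 2.05, 2.98 and 3.09 on the bur arrays and 2.0, 2.29, 2.80 and 1.52 on the control arrays. Its differences were 0.57 (interval -0.088 to 1.22, limma adjusted p = 0.183) and 0.44 (interval -0.21 to 1.09, limma adjusted p = 0.287). Itgb5, another partner of alphav, differed by -0.19 and -0.27, and Itga8, a receptor subunit for nephronectin, by -0.079 and 0.35, none past the threshold.

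**Figure D2:**
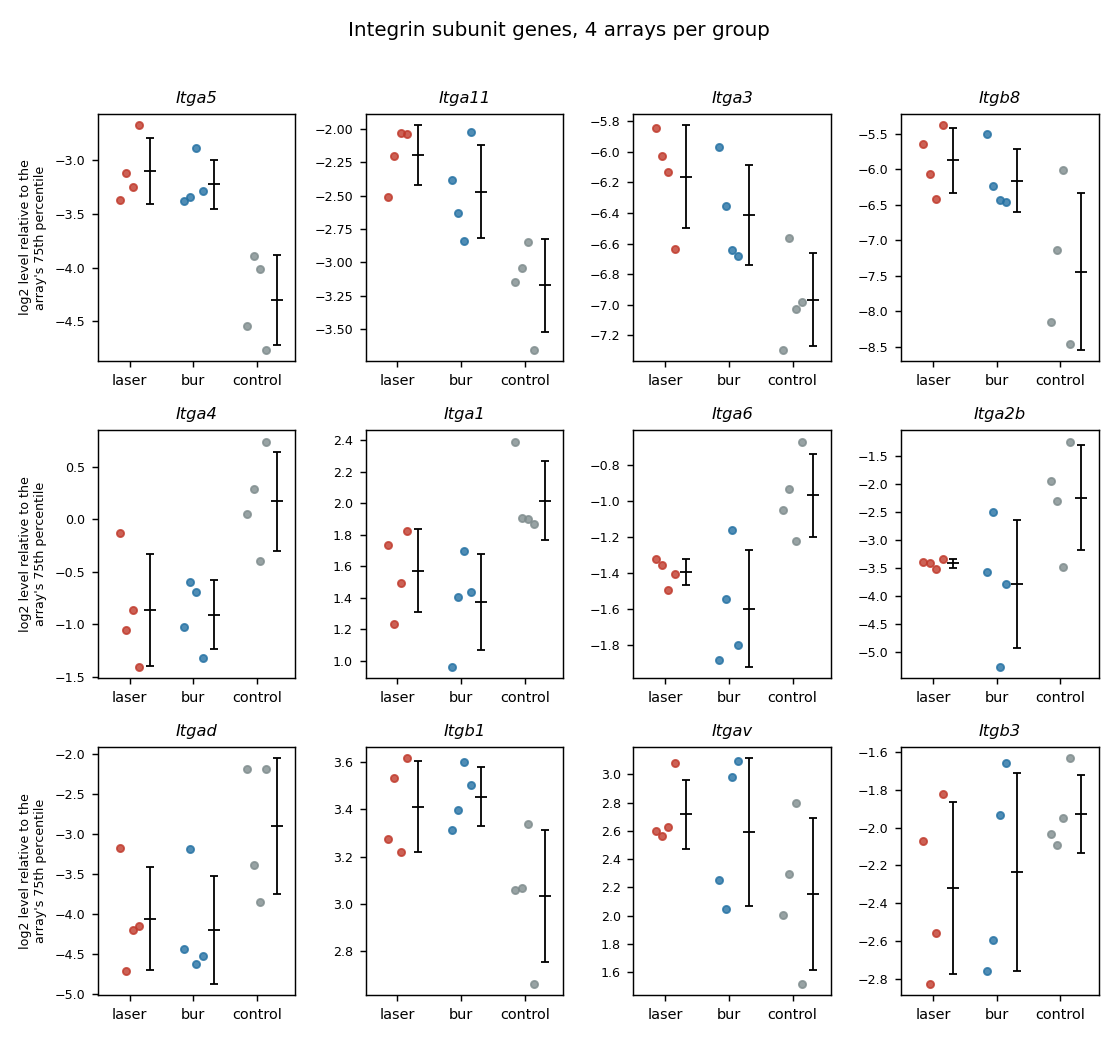
Level of 12 integrin genes on each array, as log2 relative to the array's 75th percentile, for laser, bur and control (points are arrays, bars are the mean and SD of 4). The laser and bur points of Itga5 and Itga11 lie above all control points, and those of Itga1 lie below them.

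Itga4, the alpha subunit of VCAM-1 and fibronectin receptors on blood cells and their precursors, fell with both treatments. It was at -0.13, -1.05, -0.86 and -1.40 on the laser arrays, -1.02, -0.59, -0.69 and -1.32 on the bur arrays and 0.05, 0.28, -0.39 and 0.74 on the control arrays. All bur arrays lay below all control arrays, while 1 laser array, at -0.13, overlapped control replicate 3. The means were -0.86 ± 0.54 with laser and -0.91 ± 0.33 with bur, against 0.17 ± 0.47 in control. Itga4 fell by 1.03 with laser (SE 0.30, limma adjusted p = 0.0334) and by 1.08 with bur (SE 0.30, limma adjusted p = 0.0243). The calls held in 6 of 12 fits that left out an array with laser and 7 of 12 with bur. The laser call was lost without a detection filter (limma adjusted p = 0.055) and with only laser and control fitted (limma adjusted p = 0.0691). Itga9, which binds tenascin-C and VCAM-1, differed by -0.21 and -0.25, neither past the threshold.

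None of the 7 leukocyte integrin genes passed in either comparison. Itgb2, the beta subunit shared by the leukocyte receptors LFA-1 and Mac-1, was at 0.46, 1.04, -0.23 and -0.02 on the laser arrays, 0.42, 1.17, 0.49 and -0.46 on the bur arrays and 0.97, 0.89, -0.16 and 0.73 on the control arrays. It differed by -0.29 (95% interval -1.12 to 0.54) and -0.21 (interval -1.04 to 0.62). Itgam, the alpha subunit of Mac-1 on neutrophils and macrophages, differed by 0.063 and 0.30, Itgal, of LFA-1, by -0.31 and -0.36, and Itgax by -0.049 and 0.26. Itgb7 and Itgae, the pair known from lymphocytes in epithelium, differed by -0.33 and 0.24 with laser and -0.068 and 0.26 with bur. The widest difference was that of Itgad, an alpha subunit of macrophages, at -1.16 (limma adjusted p = 0.0894) and -1.29 (limma adjusted p = 0.0589).

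Marker lists of blood cells were read beside these genes. Over all genes tested 9.26% rose and 13.0% fell with laser, and 9.99% rose and 16.2% fell with bur. Of 14 neutrophil markers 0 rose and 8 fell with laser, and 0 and 7 with bur, with list means of -0.30 to 1.22 on laser, 0.14 to 1.41 on bur and 1.03 to 2.99 on control arrays. Of 13 B cell markers 0 rose and 5 fell in each comparison, and of 15 T cell and NK cell markers 1 rose and 6 fell with laser and 2 and 5 with bur. Macrophage and monocyte markers leaned the other way. Of 15, 3 rose with laser and 5 with bur, 0 fell, and 12 and 10 did not pass. In each comparison 13 differences lay above 0 and 2 below, the lowest -0.73 with laser and -0.76 with bur. The list means were 0.85 to 1.30 on laser, 0.72 to 1.45 on bur and 0.01 to 0.57 on control arrays. Of 15 erythroid markers 14 fell in each comparison, of 10 mast cell markers 8 fell with laser and 7 with bur, and of 8 adipocyte markers 6 fell in each, with 0 rising in any of these. Osteocyte markers rose in 7 of 8 genes with laser and 3 with bur, osteoblast markers in 6 of 13 with laser and 0 with bur with 1 falling in each, and osteoclast markers in 1 and 2 of 11. Of 10 skeletal muscle markers 0 rose, and 0 fell with laser and 1 with bur. Of 10 fibroblast markers 1 rose with laser, 3 with bur and 0 fell. Itgb2 and Itgam are used by neutrophils and macrophages alike, and the part of cell makeup in their values was not tested.

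The platelet receptor genes did not pass. Itga2b, the alpha subunit of the platelet fibrinogen receptor, was at -3.39, -3.42, -3.53 and -3.34 on the laser arrays, -3.58, -2.51, -5.27 and -3.80 on the bur arrays and -1.95, -2.31, -3.49 and -1.25 on the control arrays. It differed by -1.17 with laser (95% interval -2.35 to 0.011, limma adjusted p = 0.132) and -1.54 with bur (interval -2.72 to -0.36, limma adjusted p = 0.0543), and with the replicate block the bur difference passed (limma adjusted p = 0.0276). Itgb3, its partner, which also pairs with alphav in osteoclasts, was at -2.07, -2.82, -2.55 and -1.82 on the laser arrays, -2.76, -2.59, -1.93 and -1.66 on the bur arrays and -2.03, -2.09, -1.95 and -1.63 on the control arrays, with differences of -0.39 (interval -1.0 to 0.21) and -0.31 (interval -0.91 to 0.30). Over all genes 13.0% fell with laser and 16.2% with bur. Of 13 other megakaryocyte and platelet markers 0 rose and 3 fell with laser, and 0 rose and 11 fell with bur. Their mean level was -2.43 to -1.66 on laser, -3.71 to -1.78 on bur and -1.99 to -0.08 on control arrays, and their part in the Itga2b values was not tested.

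**Figure D3:**
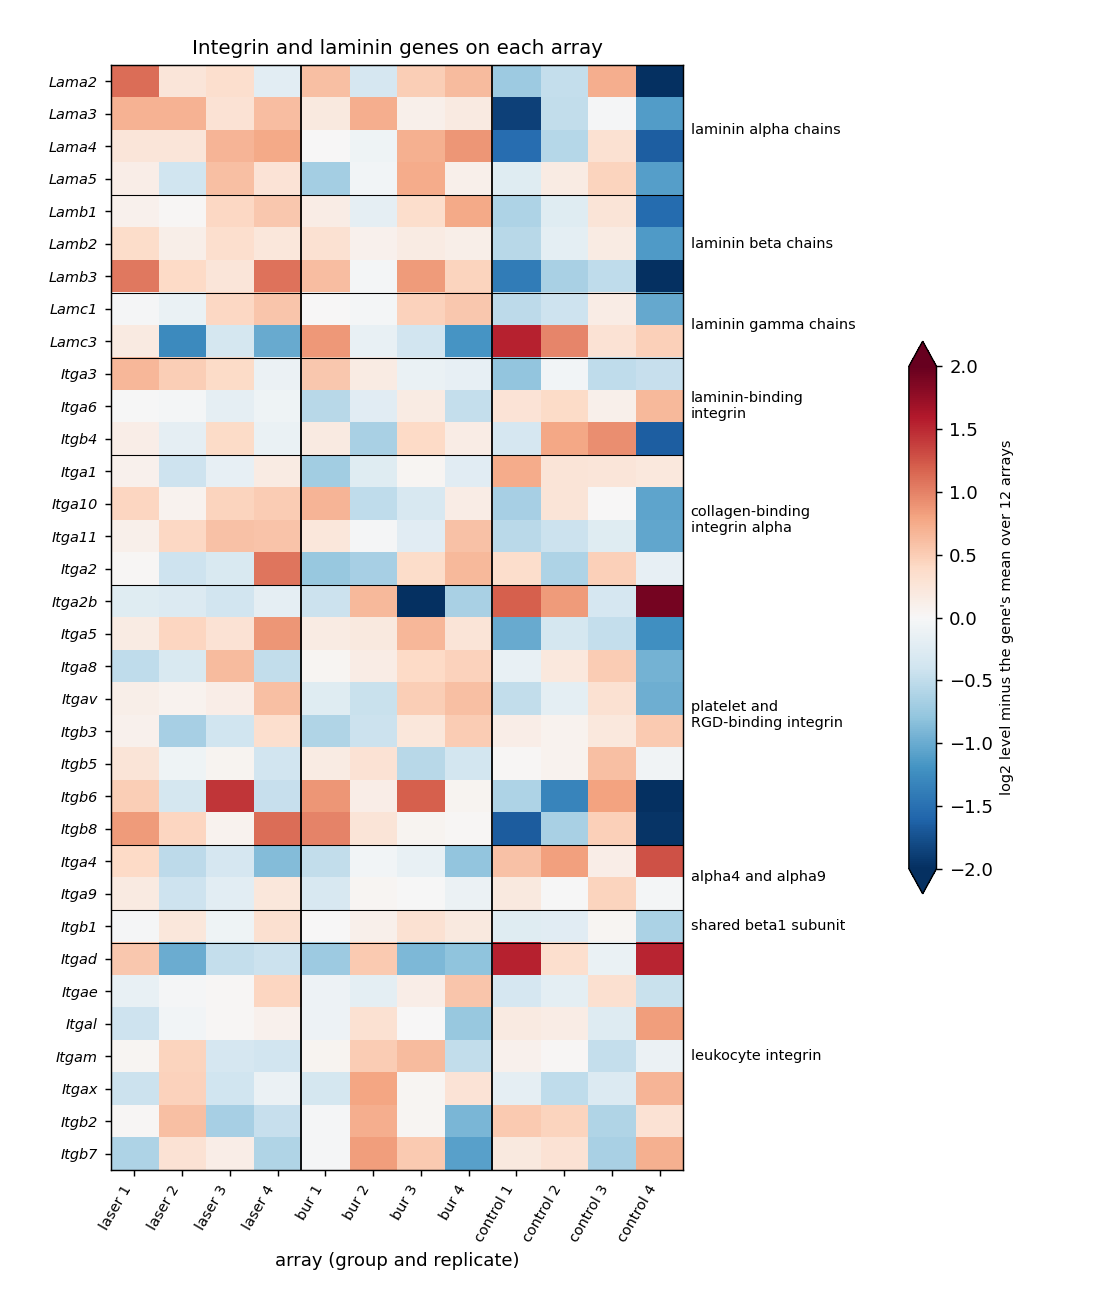
Level of the 34 tested genes on each array as a colour, log2 minus the gene's own mean over the 12 arrays, with arrays as columns (laser, bur, control) and genes grouped by role. Most laminin rows are red on treated arrays and blue on control replicates 1, 2 and 4, control replicate 3 is paler, and Lamc3, Itga4, Itga2b and Itgad run the opposite way.

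The integrin ligands on these arrays had calls in both directions. Of 24 tested, 5 rose (20.8%) and 2 fell (8.33%) with laser (median 0.56), where 9.26% of all genes rose and 13.0% fell. With bur 5 rose (20.8%) and 3 fell (12.5%), with a median of 0.19, where 9.99% rose and 16.2% fell. Without control replicate 3, 9 rose and 3 fell with laser and 7 rose and 3 fell with bur. The shares of all genes in that fit are those given above. Leaving out any other array gave 1 to 6 rises and 0 to 3 falls with laser, and 1 to 4 rises and 0 to 3 falls with bur. Tnc, which encodes tenascin-C, a matrix protein of wounds, rose by 1.72 with laser and 1.39 with bur (limma adjusted p = 0.0172 and 0.0251), and Spp1, which encodes osteopontin, by 1.15 and 1.20 (limma adjusted p = 0.0108 and 0.0062). Fbn1, which encodes fibrillin, rose by 1.04 with laser and 1.35 with bur (limma adjusted p = 0.0475 and 0.0175). Fn1, which encodes fibronectin, the ligand of alpha5beta1, was picked after its values were seen: it rose by 0.78 with bur (limma adjusted p = 0.0436) and differed by 0.75 with laser (limma adjusted p = 0.0547). Vcam1, the ligand of alpha4beta1 on endothelium, fell by 1.32 with laser and 1.30 with bur (limma adjusted p = 0.0297 and 0.0263). Fgb and Fgg, of fibrinogen, were well above background on no array.

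Among 35 tested adaptor and focal adhesion genes 6 rose (17.1%) and 0 fell with laser (median 0.05), where 9.26% of all genes rose and 13.0% fell. With bur 5 rose (14.3%) and 3 fell (8.57%), with a median of 0.02, where 9.99% rose and 16.2% fell. Fermt1, a kindlin of epithelium that activates integrins, rose by 1.56 with laser (limma adjusted p = 0.0127), and Tln2, a talin, by 0.95 with laser and 0.84 with bur (limma adjusted p = 0.0353 and 0.0459). Cd9 and Cd81, tetraspanins that sit beside integrins in the membrane, rose by 0.88 and 0.92 with laser and by 1.02 and 0.87 with bur. Parva, which encodes parvin, a partner of integrin-linked kinase, rose by 1.21 with bur (limma adjusted p = 0.0421). Vasp, an actin regulator of focal adhesions, fell by 0.86 with bur (limma adjusted p = 0.0243). Without control replicate 3, 8 rose and 8 fell with laser and 5 rose and 11 fell with bur, against the same shares of all genes as above (17.0% and 18.2%, 16.7% and 20.3%). Leaving out any other array gave 2 to 6 rises and 0 to 1 falls with laser, and 2 to 5 rises and 0 to 3 falls with bur.

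Both treatments called 6 of the same genes: Itga5, Itga11, Lama3, Lama4 and Lamb3 rose and Itga4 fell. Itga3, Itgb8, Lamb2 and Lamc3 passed with laser alone and Itga1 and Itga6 with bur alone, and none of these 6 differed between laser and bur past the threshold. In the direct comparison 0 of the 34 genes passed, as did 0 of all 22718 (0%), by limma, and at an unadjusted p under 0.05 it was 0 of 34 and 574 of all. The differences of laser minus bur ran from -0.43 for Itga8 (95% interval -1.13 to 0.27) to 0.37 for Itga2b (interval -0.81 to 1.55). For Lamb3 it was 0.23 (interval -0.54 to 1.0), for Lama3 0.27 (interval -0.44 to 0.99) and for Itga5 0.12 (interval -0.37 to 0.61). These intervals do not show that the treatments act alike.

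Counts of genes whose arrays did not overlap need no model of spread. With laser, 4 genes lay above all control arrays (Itga5, Itga11, Lama3 and Lamb3) and 3 below (Itga1, Itga6 and Lamc3), where 8.87% and 10.1% of all genes did (19.0% either way). With bur, the same 4 lay above and 2 below (Itga1 and Itga4), where 9.60% and 15.7% did (25.3% either way). Of the 4 above, Lama3 and Lamb3 were not well above background on every control array, so they are no support here either. Itga5 and Itga11 were well above background on all arrays. No gene of either family separated laser from bur, where 2.15% of all genes did.

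**Figure D4:**
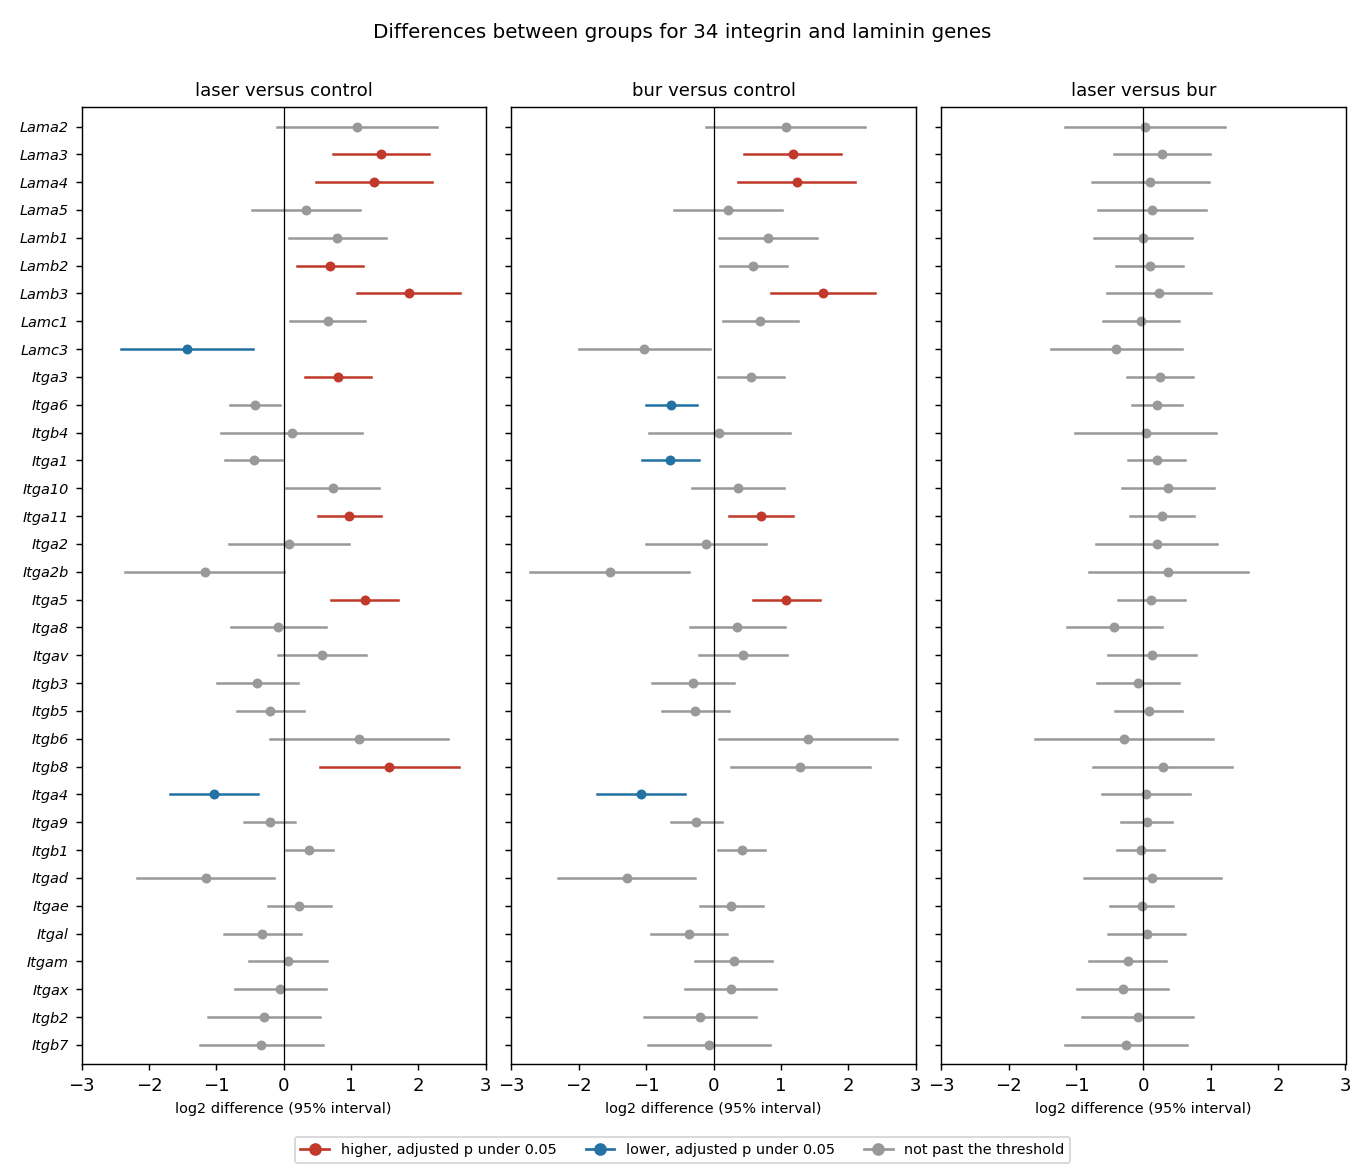
Difference on the log2 scale with its 95% interval for the 34 tested genes, in laser minus control, bur minus control and laser minus bur (red and blue passed, grey did not). Both panels with control share the control arrays, and in the laser minus bur panel every interval spans 0.

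The authors' deposited table of their own comparisons held 33 of the 34 genes on the same probe. At an adjusted p under 0.05 it called 8 higher and 3 lower in laser against control, among them 9 of the 10 called here, and not Itgb8. For bur against control the authors' deposited table called 9 higher and 4 lower, among them 7 of the 8 called here, and not Itga6. Called there and not here were Itgb3 and Lamc1 with laser, and Itga2b, Itga3, Itgb6, Lamb2, Lamc1 and Lamc3 with bur. Itga3, Lamb2 and Lamc3, which passed with laser alone here, thus passed with both treatments in the authors' deposited table. Its differences for dim genes were smaller: the authors' deposited table gives 0.92 for Lamb3 and 0.45 for Lama3 with laser, where the fit here gave 1.86 and 1.45. It has no call between laser and bur among these genes.

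**Figure D5:**
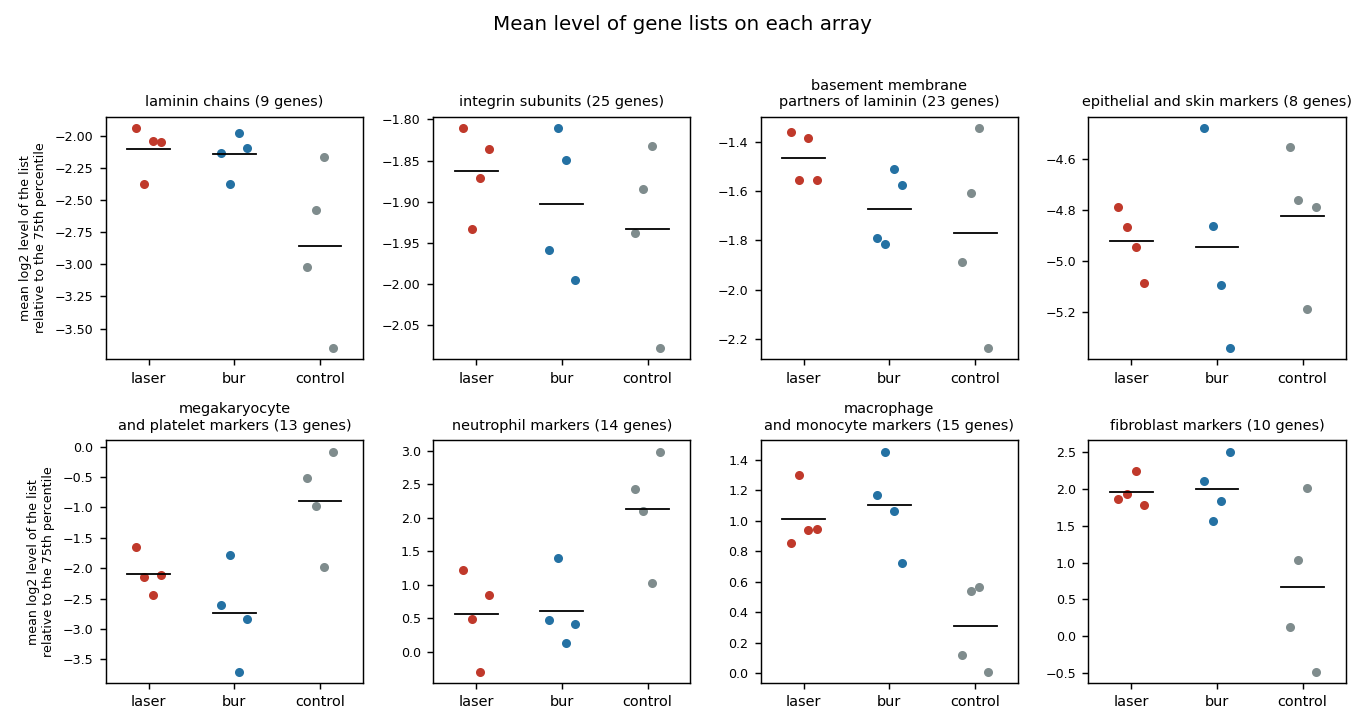
Mean log2 level, relative to the array's 75th percentile, of the laminin and integrin genes and of 6 other gene lists on each array (points), with the group mean as a line, for laser, bur and control. Laminin genes and fibroblast markers are lowest on 3 of the 4 control arrays, where neutrophil and platelet markers are high, and epithelial markers overlap across groups. The laminin mean includes Lama3 and Lamb3, which were not well above background on every array.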

How the data were processed

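Total RNA of 12 rat calvaria samples, 4 each of laser, bur and control, was measured on single-colour arrays. Per the file headers, the authors scanned the arrays and extracted spot intensity in Feature Extraction 11.0.1.1 by the protocol GE1_1100_Jul11, and probe places are on rn4. The deposited tables of the authors' own comparisons hold log2 differences and p-values, with a t and log odds score that was not used. Those comparisons do not state a normalization, but the authors' deposited table of values is labelled log2 quantile normalized. The authors' deposited intensity used here is the processed signal, which is already background-subtracted.

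The spots of a probe were averaged, the log2 intensity was set against each array's 75th percentile, and control spots were left out. Probes had to be well above background on 4 or more of the 12 arrays (29775 of 45598 probes), and the brightest kept probe stood for a gene. limma 3.58.1 in R 4.3.3 was fitted to all 12 arrays and 22718 genes without a covariate, with Benjamini-Hochberg adjusted p-values under 0.05 as the threshold. The number of arrays limits the precision. The fit was tested on simulated data.

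In all, 1 further gene that fits the naming rule is not reported here and is in no count of integrin and laminin genes. The members, gene lists and marker lists were chosen with earlier results of these data known. Genes named in full are members past the threshold in at least 1 comparison and Itgb1, Itgb2, Itgav, Itgb3, Lamb1 and Lamc1. From each related list up to 4 genes past the threshold with the largest change are named for each comparison with control. Krt14 and Fn1 are named outside this rule. Lists share genes, among them Cdh1, which is in both the ligand and the epithelial lists.

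Replicate numbers were checked as pairs. Same-numbered laser and control samples deviated together in 4 of 4 pairs (correlations 0.126 to 0.336, against -0.324 to 0.125 for unlike numbers). Laser and bur did so in 4 of 4 (0.158 to 0.341, against -0.278 to 0.143). Bur and control did so in 2 of 4 (-0.050 to 0.284, against -0.427 to 0.321). Same numbers thus lay above unlike numbers in the first 2 comparisons, though narrowly, and not in the third. Whether the numbers pair samples was not settled. The fit reported has no block, and blocked values are given where they change a call. The labels do not say what a number shares. Alternatives were normexp background correction, other scalings and filters, probe averaging, array weights, other fits, the replicate block and each array left out.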

Additional observations from a re-analysis of the deposited data

Results flagged for a closer look

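In 5 of 108 groups of 4 arrays, 1 array stood far from the other 3 by Dixon's test, and chance flags about 1 in 20 groups. Itga1 was at 2.39 on control replicate 1, where the other control arrays were at 1.87 to 1.91. Itgad was at -3.19 on bur replicate 2, with the other bur arrays at -4.63 to -4.45. Itgav was at 3.08 on laser replicate 4, with the other laser arrays at 2.56 to 2.63. Lama2 was at -2.45 on bur replicate 2, with the other bur arrays at -1.63 to -1.48. Lama3 was at -5.07 on bur replicate 2, with the other bur arrays at -5.68 to -5.60, and without that array its rise with bur did not pass.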

How the results depend on the processing

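Of the 34 genes, 8 rose and 2 fell with laser, and 5 rose and 3 fell with bur. With normexp the counts were 3 rises with laser and 7 falls with bur. Without a detection filter 5 rose and 0 fell with laser. With probes required on all 12 arrays 4 rose with laser, and 3 rose and 5 fell with bur. Fitting only the groups compared gave 4 rises and 0 falls with laser, and 2 rises and 1 fall with bur. With array weights 10 rose with bur, and 8 with the values in the authors' deposited table. Leaving out each array gave 3 to 13 rises and 0 to 5 falls with laser, 2 to 12 rises and 0 to 5 falls with bur, and 0 to 0 calls between laser and bur. The highest counts came without control replicate 3. Over all genes the 2103 rises with laser became 1187 with normexp, 1199 without a detection filter, 651 with only the groups compared and 3534 with array weights, and the 2958 falls became 1107 with only the groups compared. The 2270 rises with bur became 1483 with only the groups compared and 3631 with array weights, and the 3678 falls became 6306 with normexp and 5750 without a filter. Between laser and bur 0 became 1 without a filter. Leave-outs over all genes ranged over 449 to 3861 rises and 796 to 4133 falls with laser, and 878 to 3794 rises and 1911 to 4603 falls with bur. The median difference of all genes under normexp was -0.08 with laser, -0.24 with bur and 0.13 between them. In the main fit it was 0.0171, -0.0001 and 0.0192. Among the genes called, normexp reversed Itgb8 with laser (-0.027), and Lama3 (-0.14) with bur, and relative to the normexp median these were 0.057 and 0.10. With the replicate block, Itgb8 with laser (adjusted p = 0.058) and Itga1 (0.0517) and Itga11 (0.06) with bur did not pass, while Itgb6 passed in both comparisons and Itga2b and Lamc3 with bur. The cause of these changes was not tested. The 5 genes not well above background on all arrays have no value where all 12 were required. Signals near background limit Lama3, Lamb3, Itga3, Itgb6 and Itgb8.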
